A study of Mus musculus with 18 samples.

Results

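Messenger RNA of 37 glycolysis and hypoxia response genes was followed from ultraviolet-exposed mouse skin to papilloma and carcinoma. The 37 genes were picked by name and not by a threshold on their values, although earlier results of these data were known, and all 37 were found among the 14521 named genes of the expression table. They comprise 14 glycolytic enzymes, 6 transporters and flux regulators, 15 other targets of the hypoxia response, and 2 alpha subunits of the hypoxia-inducible factor (HIF). The samples came from 6 littermate female SKH-1E Hairless mice (numbered 2, 3, 7, 8, 9 and 10), an outbred strain without a working Hairless gene and prone to skin tumors under ultraviolet light. All animals were irradiated with a solar simulator from the age of a few months and sampled after irradiation had ended. From each mouse came 3 tissues: nonlesional skin after chronic exposure (CHR), 1 benign epidermal outgrowth or papilloma (PAP), and 1 cutaneous squamous cell carcinoma (SCC), so that there were 18 libraries in 3 groups of n = 6. CHR carries the same irradiation as the lesions, and unirradiated skin was not analyzed here.

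Glycolysis splits glucose into pyruvate, and lactate dehydrogenase turns pyruvate into lactate, which leaves the cell through monocarboxylate transporters. When oxygen is short, prolyl hydroxylases stop marking the HIF alpha subunits for destruction, and HIF binds DNA at a short core element and raises the transcription of most glycolytic genes, together with genes of acid-base balance, mitophagy, collagen processing and vessel growth. Much of that control acts on HIF protein, which RNA does not show, and Hif1a is also induced by growth factor and inflammatory signals in skin.

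Values are given as normalized reads, that is, reads per gene recovered from the deposited values and divided by the size factor of the library. Libraries held 15.4 to 21 M recovered reads, with a median of 18.9 M. Changes are log2 fold changes ± SE from one limma fit on log2(deposited value + 1), a scale that understates the change of genes with few reads, and "called" means a Benjamini-Hochberg adjusted p under 0.05 over all 14521 genes. Both lesions of mouse 10 stood apart from the others of their group. On the first principal component of all genes the papilloma of mouse 10 lay at 92.1 and the other 5 papillomas at 36.3 to 55.6, while its carcinoma lay at 59.9 and the other 5 carcinomas at -15.6 to 28.8. The papilloma of mouse 10 was the highest of the 6 papillomas for 24 of the 37 members, against 21.2% of all genes, and counts of calls are therefore given with and without these libraries.

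Marker genes of the cell types in skin shifted between groups. All 14 keratinocyte markers were detected in every group, of which PAP vs CHR called 11 up and 1 down, and SCC vs CHR called 9 up and 2 down. Over all genes, PAP vs CHR called 22.8% up and 28.7% down, and SCC vs CHR 15.1% and 21.4%. The summed level of the keratinocyte markers was 406927 to 790937 normalized reads in CHR, 758834 to 1602283 in PAP and 278384 to 969003 in SCC. The 18 skeletal muscle markers summed to 415560 to 626685 normalized reads in CHR, to 367 to 31706 in PAP and to 550 to 215913 in SCC, where the library of mouse 10 was the lowest and the other 5 had at least 85239. The 10 fibroblast markers summed to 6723 in the papilloma of mouse 10 and to 60591 to 185470 in the other 5. In carcinomas the sum was 20997 in mouse 10 and 139720 to 553584 in the other 5. Both lesions of mouse 10 also had the lowest myeloid and endothelial sums of their group, but not the lowest keratinocyte sum. None of the markers used was at 0 in all 6 libraries of a group. In bulk tissue, fewer cells of a type and less RNA per cell cannot be told apart. The part of these shifts in the changes below was not tested.

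HIF binds a short core, searched here as ACGTG or GCGTG on either strand (CACGT and CACGC when read on the gene strand). A palindromic CACGTG holds a match on both strands. RefSeq promoter windows of 300 bases (GRCm38.p6, 250 bases before to 50 after each transcript start) were available for 34 of the 37 members. Of their 47 windows, 36 (76.6%) held at least 1 match, compared with 58.8% of the 13702 windows of all genes in the table and 43.8% of all 32851 windows. By gene, 30 of the 34 members held a match, including 12 of 14 enzymes and 12 of 14 targets with a window, compared with 64.6% of the 10745 genes of the table that have one. No window was given for Ndrg1, Epas1 and Slc2a3. The windows below were chosen after the matches were seen, because each gene has a single window and the changes of these genes recur below. They show the glucose transporter Slc2a1 (chr4:119108495-119108794, plus strand), the phosphofructokinase Pfkp (chr13:6648722-6649021, minus strand), the mitophagy receptor Bnip3 (chr7:138909457-138909756, minus strand), the carbonic anhydrase Car9 (chr4:43506776-43507075, plus strand) and the triosephosphate isomerase Tpi1 (chr6:124814109-124814408, minus strand), which holds no match. Each is printed 5′ to 3′ on the gene strand, with matches in capitals.
Slc2a1: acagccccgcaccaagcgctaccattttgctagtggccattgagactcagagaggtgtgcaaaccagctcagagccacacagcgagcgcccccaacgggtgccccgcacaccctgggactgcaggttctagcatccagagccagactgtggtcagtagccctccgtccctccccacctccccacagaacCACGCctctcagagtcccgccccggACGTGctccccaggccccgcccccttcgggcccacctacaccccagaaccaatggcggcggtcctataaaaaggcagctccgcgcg
Pfkp: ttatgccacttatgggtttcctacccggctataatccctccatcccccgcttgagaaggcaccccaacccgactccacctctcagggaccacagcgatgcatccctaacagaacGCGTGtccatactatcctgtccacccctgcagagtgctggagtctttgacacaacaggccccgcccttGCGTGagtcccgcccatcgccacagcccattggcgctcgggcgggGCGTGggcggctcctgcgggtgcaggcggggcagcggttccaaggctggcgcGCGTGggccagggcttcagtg
Bnip3: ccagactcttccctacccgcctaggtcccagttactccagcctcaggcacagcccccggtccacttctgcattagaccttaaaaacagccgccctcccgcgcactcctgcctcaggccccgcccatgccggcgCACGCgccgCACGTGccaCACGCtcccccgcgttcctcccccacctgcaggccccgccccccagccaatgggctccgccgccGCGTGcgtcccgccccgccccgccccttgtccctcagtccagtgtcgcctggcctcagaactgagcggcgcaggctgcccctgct
Car9: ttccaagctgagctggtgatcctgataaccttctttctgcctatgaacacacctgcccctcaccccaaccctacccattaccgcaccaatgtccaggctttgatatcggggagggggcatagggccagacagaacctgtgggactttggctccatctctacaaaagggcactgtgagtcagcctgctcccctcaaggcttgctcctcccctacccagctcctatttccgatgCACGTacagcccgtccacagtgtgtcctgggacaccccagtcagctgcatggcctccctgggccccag
Tpi1: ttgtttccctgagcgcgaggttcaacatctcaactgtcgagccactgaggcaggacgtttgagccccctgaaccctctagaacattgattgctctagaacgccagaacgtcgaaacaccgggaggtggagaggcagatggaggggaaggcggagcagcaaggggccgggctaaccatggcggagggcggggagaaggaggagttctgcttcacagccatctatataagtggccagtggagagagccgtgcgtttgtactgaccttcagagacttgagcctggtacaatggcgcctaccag
The Car9 window holds 1 match, at base -18 from the transcript start, and the Bnip3 window holds 5. These are matches of letters and not mapped binding sites.

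The first comparison asked how the genes differ between a papilloma and the exposed skin around it. Of the 37 members, 32 were higher in PAP, 1 (Epas1) was lower, and 4 were not called (Aldoa, Slc2a3, Pfkfb4 and Vldlr). Over the whole table, 22.8% of genes were called higher and 28.7% lower. The median log2 fold change was 1.16 over the members and 0.00 over all genes, and it was above 0 in each of the 6 mice (0.88 to 1.76). In 27 members all 6 papillomas lay above all 6 CHR libraries, as did 14.4% of all genes. Without the papilloma of mouse 10, 32 members were called higher and none lower, with a median of 1.01. By role, 13 of 14 enzymes and 14 of 15 targets were called higher, with medians of 1.10 and 1.32 on the log2 scale.

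**Figure D1:**
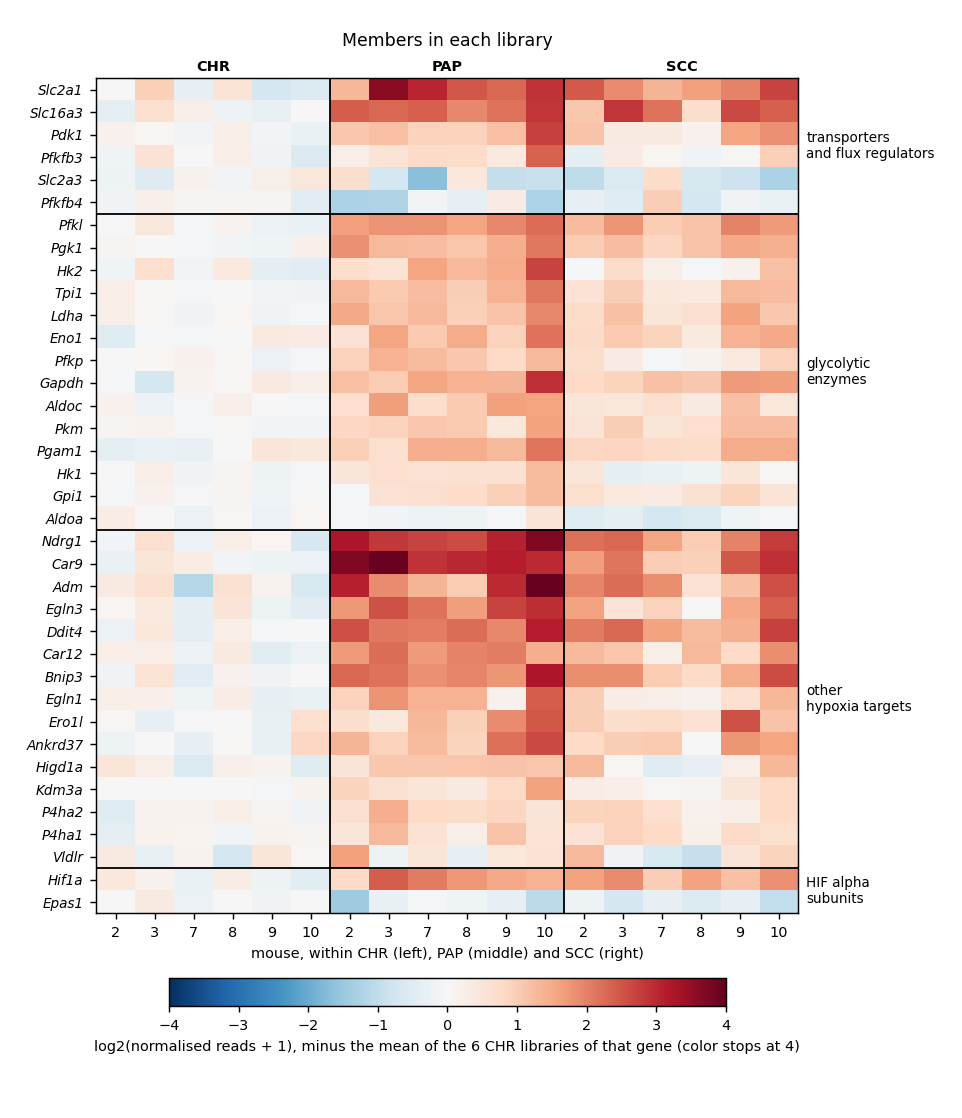
Heat map of the 37 members (rows, by role) in the 18 libraries (columns, by mouse within CHR, PAP and SCC). Color shows log2(normalized reads + 1) minus the mean of the 6 CHR libraries of that gene. The PAP block is mostly red, the column of mouse 10 in PAP is the deepest, with Adm at 8196 normalized reads, and Epas1, Slc2a3 and Pfkfb4 have blue cells in PAP.

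The RNA of the glucose transporter Slc2a1 and of the lactate exporter Slc16a3 showed the largest rises among the transporters and flux regulators. Slc2a1, the main glucose transporter of epidermis (chr4:119108711-119137983), had 1719 to 5241 (median 2489) normalized reads in CHR, 6886 to 33309.8 (median 17798) in PAP and 6945 to 17953 (median 10489) in SCC. All 6 papillomas and all 6 carcinomas lay above the highest CHR library, that of mouse 3. The log2 fold change was 2.58 ± 0.34 in PAP vs CHR (adjusted p = 9.07e-06) and 1.97 ± 0.34 in SCC vs CHR (adjusted p = 0.000292), and the mean was 6.27 and 3.89 times that of CHR. Slc16a3, which exports lactate from glycolytic cells, had 718 to 1440.5 (median 879) in CHR, 3526 to 6815 (median 4746) in PAP and 1515 to 6783 (median 4546) in SCC. Again no lesion overlapped with CHR, but the carcinomas spread from just above the CHR range to the level of the highest papilloma. Its log2 fold change was 2.25 ± 0.30 in PAP (adjusted p = 9.97e-06) and 1.89 ± 0.30 in SCC (adjusted p = 0.000147).

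The second glucose transporter on the list did not follow. Slc2a3, a high-affinity transporter best known from neurons and leukocytes, had 169.7 to 331 (median 249.9) normalized reads in CHR, 75.1 to 399 (median 140.2) in PAP and 100.2 to 402 (median 147) in SCC. The 3 ranges overlapped, and neither lesion passed the test against CHR (log2 fold change -0.35 ± 0.28, adjusted p = 0.302, in PAP, and -0.43 ± 0.28, adjusted p = 0.235, in SCC). Of the 11 myeloid markers in the table, 9 were lower in PAP, where 28.7% of all genes were called lower. The part of these markers in the values of Slc2a3 was not tested.

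Pdk1 and the 2 PFKFB enzymes set the flow of carbon. Pdk1, a kinase that switches off pyruvate dehydrogenase, had 998 to 1398 (median 1182) normalized reads in CHR, 2232 to 7897 (median 2625) in PAP and 1338 to 4195 (median 2072) in SCC. All papillomas exceeded CHR, and that of mouse 10 had 7897 where the next had 2744. The log2 fold change was 1.29 ± 0.30 in PAP (adjusted p = 0.00188) and 0.86 ± 0.30 in SCC (adjusted p = 0.0338). The SCC call was lost without the carcinoma of mouse 10 (adjusted p = 0.082) and without mouse 2 or 9, up to 0.142. Pfkfb3, which makes the activator of phosphofructokinase, had 876 to 1976 (median 1253) in CHR, 1576 to 6679 (median 2052) in PAP and 1031 to 2551 (median 1364) in SCC, and the groups overlapped. It rose in PAP (0.81 ± 0.29, adjusted p = 0.0273, 0.0688 without mouse 7, and 0.52 with adjusted p = 0.0499 without the papilloma of mouse 10, or 0.41 with adjusted p = 0.046 without mouse 10) and was not called in SCC (0.15 ± 0.29, adjusted p = 0.727). Pfkfb4, a second enzyme of that kind, had 757 to 1195 (median 1118) in CHR, 430.4 to 1292 (median 629) in PAP and 639.6 to 2023 (median 836) in SCC. It was not called in PAP (-0.58 ± 0.27, adjusted p = 0.0801), although a term for the mouse gave an adjusted p of 0.0426, with the papilloma below the skin of the same animal in 5 of 6 mice. Leaving out mouse 7 or 9 also called it, with adjusted p of 0.042 to 0.0434.

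The 14 glycolytic enzymes covered every step from glucose to lactate. At the entry, Hk2, the inducible hexokinase, had 2826 to 6063 (median 3437) normalized reads in CHR, 5565 to 24809.6 (median 9937) in PAP and 3544 to 8561 (median 4315) in SCC. The papilloma of mouse 10 was far above the rest, and the papilloma of mouse 3 was below its own skin. The log2 fold change was 1.37 ± 0.31 in PAP (adjusted p = 0.00142) and 0.36 ± 0.31 in SCC (adjusted p = 0.392). Hk1, the constitutive hexokinase, had 1984 to 2728 (median 2252) in CHR, 3219.5 to 5513 (median 3471) in PAP and 1796 to 3201 (median 2168) in SCC. All papillomas lay above all CHR libraries and above all carcinomas, and the carcinomas spanned the CHR range. Its log2 fold change was 0.69 ± 0.16 in PAP (adjusted p = 0.00168) and 0.03 ± 0.16 in SCC (adjusted p = 0.897).

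Pfkl and Pfkp are the members that encode phosphofructokinase, the committed step. The muscle form Pfkm, which is not a member and was lower in both lesions, is given further below. Pfkl, the liver-type subunit (chr10:77986947-78010083), had 1608 to 2623 (median 1854) normalized reads in CHR, 5755 to 9053 (median 6727) in PAP and 3860.1 to 7678 (median 5418) in SCC. No lesion overlapped with CHR. It had the highest log2 fold change of the enzymes in both lesions, at 1.79 ± 0.17 in PAP (adjusted p = 3.34e-07) and 1.44 ± 0.17 in SCC (adjusted p = 9.09e-06). Pfkp, the platelet-type subunit (chr13:6579768-6648777), had 3658 to 4844 (median 4308) in CHR, 7450.0 to 11169 (median 9544) in PAP and 4094 to 8135 (median 5521) in SCC. All papillomas exceeded CHR, whereas the lowest carcinomas lay within the CHR range. The log2 fold change was 1.11 ± 0.15 in PAP (adjusted p = 9.1e-06) and 0.40 ± 0.15 in SCC (adjusted p = 0.0396), and the latter call was lost on leaving out any 1 of mice 2, 3, 8, 9 and 10 (adjusted p up to 0.146).

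In the middle of the pathway, Aldoa was the only enzyme not called higher in either lesion. Aldoa, the aldolase that predominates in muscle and most other tissues, had 7167 to 10356 (median 8632) normalized reads in CHR, 7132 to 12018 (median 7893) in PAP and 5144 to 8221 (median 6289) in SCC. The 3 ranges overlapped, and the papilloma of mouse 10 was the highest of all 18 libraries. The log2 fold change was -0.02 ± 0.14 in PAP (adjusted p = 0.903, 95% interval -0.32 to 0.28), and SCC was lower at -0.38 ± 0.14 (adjusted p = 0.0426, 0.0781 to 0.154 without mouse 2, 3, 7 or 8, and 0.0857 with libraries scaled to total reads). Aldoc, the brain-type aldolase, averaged 234 ± 25.9 (198 to 268) in CHR, 569 ± 176 (375 to 748) in PAP and 359.6 ± 82.5 (297 to 521) in SCC (mean ± SD, with the range), and rose by 1.02 ± 0.16 in PAP (adjusted p = 5.83e-05). Gpi1, which converts glucose 6-phosphate to fructose 6-phosphate, had 894 to 1111 (median 982) in CHR, 969 to 2410.1 (median 1603) in PAP and 1256 to 1845 (median 1495) in SCC. It had the smallest log2 fold change of the enzymes called in PAP (0.65 ± 0.16, adjusted p = 0.00203), and the papilloma of mouse 2 lay within the CHR range. Tpi1, which interconverts the triose phosphates, averaged 1912 ± 199 (1724 to 2269) in CHR, 4999 ± 1604 (3801 to 8144) in PAP and 3460.0 ± 999.9 (2470.1 to 4729) in SCC and rose by 1.31 ± 0.19 (adjusted p = 1.91e-05).

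Members of the payoff steps rose together in PAP. Pgk1, which makes the first ATP of the pathway (chrX:106187100-106203699), had 425 to 549.9 (median 462) normalized reads in CHR, 1019 to 2066 (median 1236) in PAP and 852 to 1349.8 (median 1081) in SCC. Neither lesion overlapped with CHR, and the log2 fold change was 1.38 ± 0.15 in PAP (adjusted p = 1.3e-06) and 1.08 ± 0.15 in SCC (adjusted p = 4.51e-05). Ldha, the lactate dehydrogenase subunit that favours lactate, averaged 2779.7 ± 297 (2495 to 3279) in CHR, 7094 ± 1869.5 (5323 to 10499) in PAP and 5562 ± 1684 (3911 to 8440.1) in SCC, a log2 fold change of 1.30 ± 0.18 in PAP (adjusted p = 1.33e-05) and 0.94 ± 0.18 in SCC (adjusted p = 0.000656). Pkm, the pyruvate kinase of most tissues, averaged 4554 ± 349 (4188 to 4982), 9287 ± 2508 (6199 to 13758) and 8436 ± 2009.8 (6295 to 10723) in the same order, with 0.98 ± 0.17 in PAP (adjusted p = 0.000121). The table gives 1 value per gene and does not separate its splice forms.

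Gapdh, Pgam1 and Eno1 had low counts. Gapdh, the glyceraldehyde 3-phosphate dehydrogenase, averaged 83.4 ± 18.7 (50 to 105) normalized reads in CHR, 274 ± 172 (165 to 619.8) in PAP and 198 ± 55.3 (143 to 270.0) in SCC, which is 20.2 reads per kb of exon in CHR compared with 839.8 for Ldha. Of its transcript, 86.1% is shared, in runs of at least 50 bases, with 222 other annotated genes, and reads that fit several places may be split or lost in counting. The shared part was 85% for Eno1, 86.3% for Bnip3, 68.8% for Pgk1, 59% for Pkm, 50.5% for Gpi1, 43.1% for Pgam1, 42.7% for Higd1a, 41.6% for Ldha and 35.3% for Aldoa, and the counts of these genes are uncertain in level. Within that limit, Gapdh rose by 1.10 ± 0.21 in PAP (adjusted p = 0.000344), with the papilloma of mouse 10 at 619.8 and the others at 165 to 243. Eno1, the enolase of most tissues, averaged 308 ± 64.3 (217 to 387), 794 ± 329.5 (449 to 1368) and 628 ± 176 (399 to 863) (1.12 ± 0.22 in PAP, adjusted p = 0.000343). Pgam1, a phosphoglycerate mutase, averaged 71.5 ± 19.9 (53.7 to 98), 184 ± 69.4 (109 to 309) and 146 ± 38.3 (117 to 197) (0.86 ± 0.16 in PAP, adjusted p = 0.000319).

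The muscle isozymes of the same steps moved in the other direction. Eno3, the muscle enolase, fell from 4654 ± 986 normalized reads in CHR to 122 ± 127 in PAP (-4.79 ± 0.43, adjusted p = 2.2e-07) and 696 ± 401 in SCC (-2.88 ± 0.43, adjusted p = 7.69e-05). Pgam2, the muscle mutase, fell from 814 ± 163 to 13.4 ± 21.1 and 120.5 ± 76.6, and Pfkm, the muscle phosphofructokinase, from 3906 ± 566 to 361 ± 173 and 802 ± 328. Per kb of exon, Eno1 made up 1.06 to 2.91% of Eno1 and Eno3 together in CHR, 27.6 to 85.4% in PAP and 10.9 to 80.4% in SCC. Pgam1 made up 1.98 to 5.65%, 50.4 to 99.2% and 19.7 to 100% of the 2 mutases, Pgam2 having 0 reads in the carcinoma of mouse 10, and Pfkl with Pfkp 29.2 to 38.3%, 87.9 to 97.6% and 75.0 to 94.6% of the 3 phosphofructokinases. The shared sequence of Eno1 and Pgam1 may lower their shares in all libraries, and all shares depend on the exon length used. The carcinoma with the highest share in each case was that of mouse 10, which also had the lowest sum of muscle markers, and the papilloma with the lowest share was that of mouse 2, which had the highest sum among papillomas. The part of muscle tissue in these shares was not tested. Hk3, a hexokinase known from myeloid cells, fell from 2423 ± 962 to 101 ± 49.5 and 482 ± 385, beside the fall of the myeloid markers.

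**Figure D2:**
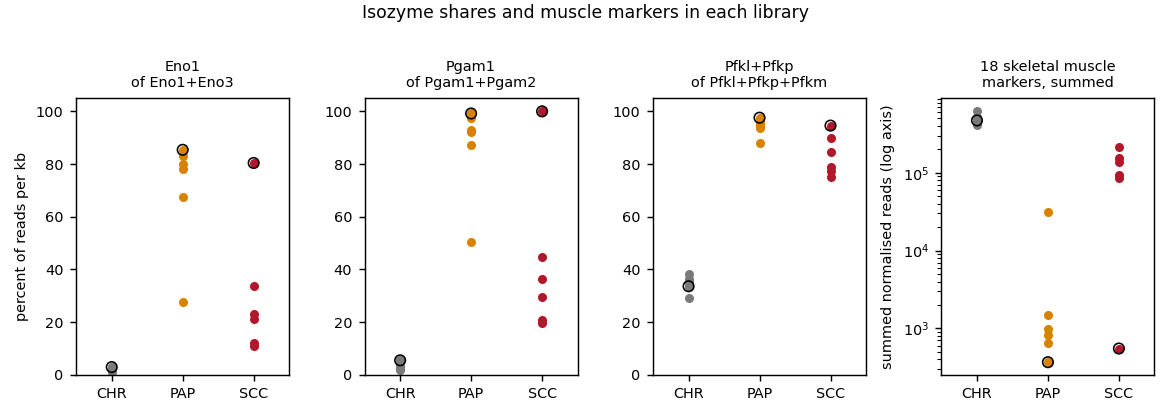
Percent of reads per kb of exon from Eno1, Pgam1 and Pfkl with Pfkp within each isozyme set, and the summed normalized reads of 18 skeletal muscle markers on a log axis, with 1 point per library and mouse 10 ringed. CHR lies at the bottom of the first 3 panels (at most 2.91%, 5.65% and 38.3%) and at the top of the last, and the ringed carcinoma lies at the level of the papillomas in all 4, with 80.4%, 100% and 94.6% in the first 3.

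The highest log2 fold change of any member in PAP vs CHR was that of Ndrg1, while by the ratio of means Car9 and Adm came first, with 10.1 and 9.83 times CHR, and Ndrg1 had 8.14. Ndrg1, a growth-inhibitory and stress-induced protein of differentiating epithelium (chr15:66929318-66969640), had 1626 to 3979 (median 2548) normalized reads in CHR, 15591 to 33273 (median 20105) in PAP and 5154 to 17862 (median 10966) in SCC. Neither lesion overlapped with CHR, and the log2 fold change was 2.99 ± 0.27 in PAP (adjusted p = 2.03e-07) and 1.95 ± 0.27 in SCC (adjusted p = 3.42e-05). Car9, a membrane carbonic anhydrase that works on the outer cell surface (chr4:43506966-43513729), had 44 to 73.9 (median 47.6) in CHR, 396 to 831 (median 456) in PAP and 104 to 407 (median 204) in SCC. Every lesion exceeded every CHR library. The mean was 10.1 times that of CHR in PAP and 4.09 times in SCC, while the log2 fold change on the compressed scale was 2.33 ± 0.23 (adjusted p = 4.65e-07) and 1.20 ± 0.23 (adjusted p = 0.000695). Car12, the related anhydrase, was already well expressed in CHR at 4390.0 ± 1001 (3109.9 to 5509.8) and averaged 15775 ± 3144 (11639 to 20358) in PAP and 9709.6 ± 3517 (5082 to 15486) in SCC (1.83 ± 0.22 in PAP, adjusted p = 3.11e-06). The papilloma of mouse 10 was the lowest of the 6 for Car12 and for P4ha2.

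Adm, which encodes a secreted vasodilator peptide, had the widest range among papillomas as a ratio. It had 91.8 to 323 (median 247) normalized reads in CHR, 417 to 8196 (median 1209) in PAP and 309.9 to 1243 (median 774) in SCC. All papillomas exceeded CHR, but the value of 8196 came from mouse 10 and the next papilloma had 1784. The log2 fold change was 2.27 ± 0.52 in PAP (adjusted p = 0.00153) and 1.44 ± 0.52 in SCC (adjusted p = 0.0391, 0.0652 by limma-voom). The SCC call was lost without the carcinoma of mouse 10 (adjusted p = 0.0804) and on leaving out mouse 2, 3, 7 or 9 (up to 0.108), and so was that of Ankrd37 (adjusted p = 0.0656 without that carcinoma and 0.0658 to 0.12 without those mice). Ankrd37, an ankyrin repeat protein, averaged 117 ± 41.1 (88.3 to 198), 368 ± 202 (207 to 708) and 248 ± 98.2 (113 to 383) in CHR, PAP and SCC.

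Feedback and stress genes also rose in PAP. Egln3, a prolyl hydroxylase that marks HIF for destruction and is itself induced by it, averaged 2317 ± 628 (1683 to 3183) normalized reads in CHR, 11651 ± 4085 (7157 to 17483) in PAP and 5796 ± 3396 (2212 to 11689) in SCC. Its log2 fold change was 2.26 ± 0.33 in PAP (adjusted p = 2.06e-05) and 1.14 ± 0.33 in SCC (adjusted p = 0.0116, 0.0581 without mouse 9). Egln1, the main hydroxylase of most cells, averaged 1803 ± 355 (1414 to 2202) in CHR, 5079 ± 2622 (2001 to 9609) in PAP and 2823 ± 962 (1993 to 4423) in SCC. It rose in PAP (1.32 ± 0.29, adjusted p = 0.000939) and was not called in SCC (0.59 ± 0.29, adjusted p = 0.116, 0.0344 with only CHR and SCC in the fit). Ddit4, an inhibitor of mTORC1, averaged 589.5 ± 123 (445 to 771) in CHR, 3073 ± 1101 (2195 to 5126) in PAP and 2307 ± 930.1 (1386 to 3820.2) in SCC, with all lesions above all skin (2.20 ± 0.24, adjusted p = 9.66e-07, in PAP and 1.77 ± 0.24, adjusted p = 2.78e-05, in SCC). Bnip3, a receptor for mitophagy, averaged 58.4 ± 14.6 (41.8 to 84.3), 286 ± 132 (196 to 548) and 191 ± 91.5 (98.7 to 353) (1.47 ± 0.22 in PAP, adjusted p = 2.52e-05). Higd1a, a mitochondrial protein of the respiratory chain, averaged 427 ± 119 (274 to 576), 839.5 ± 126 (584 to 919) and 603 ± 336 (296 to 1037) and was called in PAP only (0.89 ± 0.26, adjusted p = 0.0074, and 0.33 ± 0.26, adjusted p = 0.33, in SCC).

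The smallest log2 fold changes of the targets in PAP vs CHR were in collagen-processing and lipid genes. P4ha1, a catalytic subunit of collagen prolyl 4-hydroxylase, had 1286 to 1878 (median 1842) normalized reads in CHR, 2067 to 4167 (median 2514) in PAP and 1952 to 3243 (median 2779) in SCC. All papillomas and all carcinomas lay above all CHR libraries, and the log2 fold change was 0.70 ± 0.17 in PAP (adjusted p = 0.00199). P4ha2, the other catalytic subunit, had 318 to 520.3 (median 488) in CHR, 642 to 1235 (median 755) in PAP and 499.7 to 847 (median 749.7) in SCC. All papillomas exceeded CHR while the lowest carcinoma lay within it, and the log2 fold change was 0.74 ± 0.16 in PAP (adjusted p = 0.000927). Vldlr, a lipoprotein receptor, had 649 to 1471 (median 1123) in CHR, 841 to 3333 (median 1457) in PAP and 559 to 2597 (median 1231) in SCC. The lesions of mouse 2 were the highest of both lesion groups, and no comparison with CHR passed the test (0.41 ± 0.35, adjusted p = 0.34, in PAP and 0.17 ± 0.35, adjusted p = 0.734, in SCC). Ero1l, which oxidizes proteins in the endoplasmic reticulum, averaged 1419.7 ± 403 (1111 to 2198), 3840.3 ± 2200.1 (1867 to 7644) and 3402 ± 2286 (2057 to 8012) (1.25 ± 0.34 in PAP, adjusted p = 0.00494). Kdm3a, a histone demethylase, averaged 2390.2 ± 133 (2264 to 2649.8), 4326 ± 1544 (3095 to 7299) and 3060.1 ± 636 (2448 to 4193) (0.78 ± 0.17 in PAP, adjusted p = 0.00108).

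**Figure D3:**
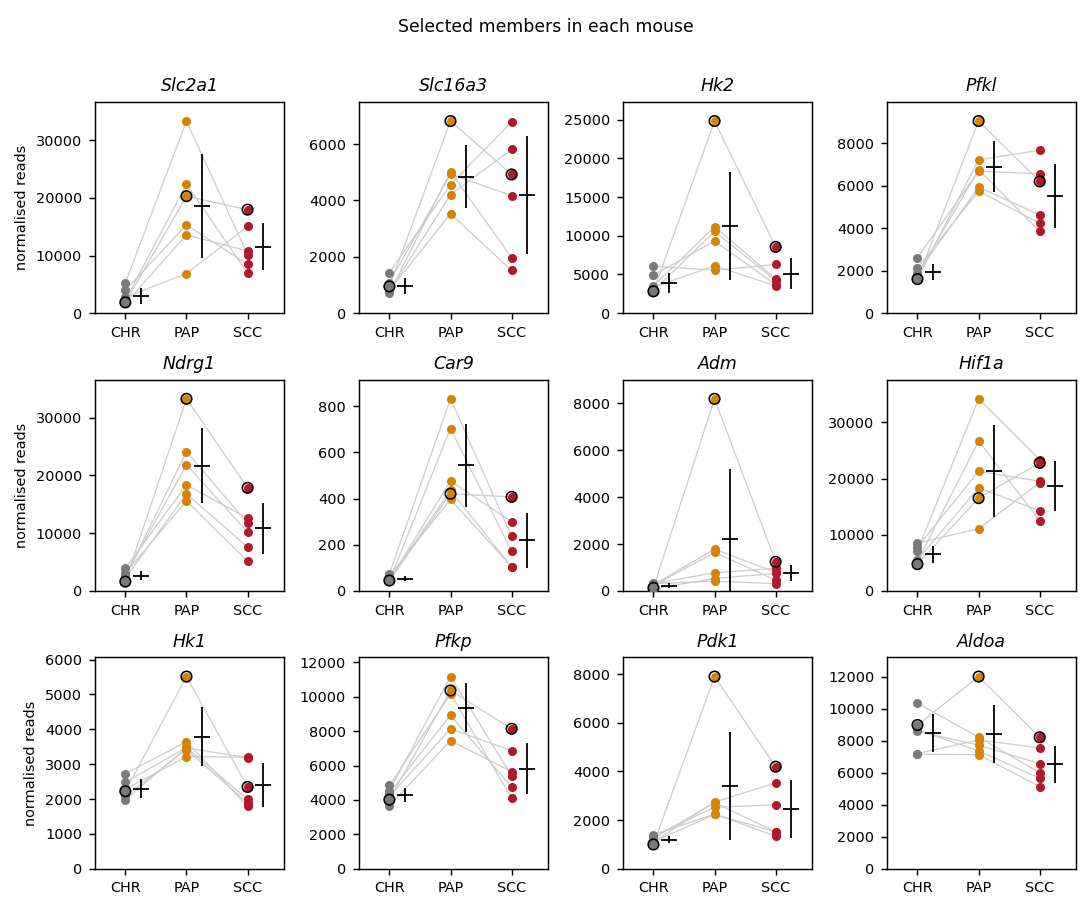
Normalised reads of 12 members by group, with 1 point per library, gray lines joining the libraries of each mouse, mouse 10 ringed, and the mean ± SD (n = 6) beside the points. Papillomas lie above CHR without overlap for Slc2a1, Slc16a3, Pfkl, Ndrg1, Car9, Adm, Hif1a, Hk1, Pfkp and Pdk1, and Hk2 and Aldoa overlap.

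The 2 HIF alpha subunits moved in opposite directions. Hif1a (chr12:73901375-73947530) had 4775 to 8506 (median 6349) normalized reads in CHR, 11080.2 to 34177 (median 19801) in PAP and 12498 to 23356 (median 19402) in SCC. Every lesion exceeded every CHR library, and the rise was nearly the same in size in both (log2 fold change 1.64 ± 0.24, adjusted p = 1.89e-05, in PAP and 1.50 ± 0.24, adjusted p = 0.000124, in SCC), with a difference between lesions of -0.14 ± 0.24 (95% interval -0.64 to 0.35). Its highest papillomas were those of mice 3 and 7, and that of mouse 10, which was the highest for 24 of the members, was the second lowest. Epas1, which encodes HIF-2 alpha and is strongest in endothelium (chr17:86753700-86833410), had 1901 to 2864 (median 2257) in CHR, 834 to 2122 (median 1814) in PAP and 1144 to 1959.7 (median 1666) in SCC. It fell in PAP (-0.53 ± 0.20, adjusted p = 0.0311) but not past the threshold without the papilloma of mouse 10 (adjusted p = 0.077) or without mouse 2, 3 or 10 (0.0713 to 0.104), and it was not called in SCC (-0.48 ± 0.20, adjusted p = 0.0615, 0.029 without mouse 2 and 0.0144 with only CHR and SCC in the fit). Of 12 endothelial markers, 5 were lower and 2 higher in PAP, and 1 was lower and 3 higher in SCC vs CHR. Over all genes, 28.7% were called lower and 22.8% higher in PAP, and 21.4% and 15.1% in SCC vs CHR. The summed level of the endothelial markers was 7967 to 11423 normalized reads in CHR, 5037 to 8884 in PAP and 7828 to 12268 in SCC. The part of endothelium in the value of Epas1 was not tested.

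Per kb of annotated exon, the order of levels among members changed between groups. In CHR the highest mean was that of Aldoa with 2919 normalized reads per kb, followed by Hif1a with 1104 and Pkm with 911, whose CHR ranges overlapped each other but not that of Aldoa. In PAP, Slc2a1 was first with 5312, followed by Egln3 with 4377, Hif1a with 3619 and Ndrg1 with 3286, and Aldoa was the fifth with 2894. The papilloma ranges of these 5 genes overlap on this scale, so their order does not exceed the spread between mice. In SCC, Slc2a1 with 3298 and Hif1a with 3158 were the highest, and their ranges overlapped. The length used was all annotated exon of a gene, which can exceed its longest transcript by unequal amounts. It was 6596 bases against 2889 for Ndrg1, 2911 against 1549 for Aldoa and 3506 against 3260 for Slc2a1. The order between genes therefore depends on the length used. The shared sequence given above also leaves the levels of Aldoa and Pkm uncertain.

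The second comparison set carcinomas against the exposed skin. Of the 37 members, 26 were called higher in SCC, 1 (Aldoa) lower and 10 were not called, where 15.1% of all genes were called higher and 21.4% lower. The median log2 fold change was 0.79 over the members and -0.02 over all genes. Its value per mouse was 0.28 to 1.13, lowest in mouse 8 and highest in mouse 10. In 18 members all carcinomas lay above all CHR libraries, as did 8.56% of all genes. Without the carcinoma of mouse 10, 22 were called higher and the median was 0.68. By role, 11 of 14 enzymes and 11 of 15 targets were called higher, with medians of 0.72 and 1.02, and leaving out mouse 9 left 7 of the targets. The calls of Gpi1 (adjusted p = 0.0634), Egln3 and Ero1l (0.0791) were lost without that mouse, that of P4ha2 without mouse 2 (0.0721), and that of Aldoc without mouse 3, 7, 9 or 10 (0.0501 to 0.092). Both comparisons share the 6 CHR libraries, so their values are not independent.

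The log2 fold changes over skin in PAP and SCC, given side by side, were 0.98 ± 0.17 and 0.85 ± 0.17 for Pkm, 0.65 ± 0.16 and 0.54 ± 0.16 for Gpi1, and 0.70 ± 0.17 and 0.63 ± 0.17 for P4ha1. They lay further apart, at 0.69 ± 0.16 and 0.03 ± 0.16 for Hk1, 1.37 ± 0.31 and 0.36 ± 0.31 for Hk2, 0.81 ± 0.29 and 0.15 ± 0.29 for Pfkfb3 and 1.32 ± 0.29 and 0.59 ± 0.29 for Egln1. For Bnip3, Egln3, Ddit4 and Car9 the carcinoma of mouse 10 was the highest and that of mouse 8 the lowest, with 353 and 98.7 normalized reads for Bnip3. The carcinoma of mouse 8 was the lowest of the 6 for 19 of 37 members, and that of mouse 9 the highest for 9 of 14 enzymes. Over all genes, the carcinoma of mouse 9 was the highest for 22.6% and that of mouse 10 for 18.3%. The share with mouse 8 the lowest was not computed.

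The third comparison asked whether carcinoma differs from papilloma. Of the 37 members, 4 were called lower in SCC and 0 higher (2 enzymes and 2 targets), where 0.592% of all genes were called lower and 4.99% higher. The median log2 fold change was -0.41 over the members and -0.02 over all genes, 35 of 37 were below 0, and the median was below 0 in each of the 6 mice (-0.61 to -0.21). Without the papilloma of mouse 10 the median was -0.26. At an unadjusted p under 0.05 there were 14 members (37.8%), all lower in SCC, and 22.6% of all genes in either direction. Car9 fell by 1.14 ± 0.23 (adjusted p = 0.0231), with carcinoma below papilloma in 6 of 6 mice, although the highest carcinoma (407) exceeded the lowest papilloma (396). Ndrg1 was lower (-1.05 ± 0.27, adjusted p = 0.0359, 6 of 6 mice), as was Pfkp (-0.70 ± 0.15, adjusted p = 0.0231, 6 of 6 mice). Hk1 was lower as well (-0.65 ± 0.16, adjusted p = 0.0315). It was the only member with all carcinomas below all papillomas, and the share of all genes with such a separation was not computed.

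These 4 calls depended on the libraries and on the model. With a term for the mouse there were 7, with the addition of Car12 (adjusted p = 0.0379), Egln3 (0.0478) and Kdm3a (0.0363). Without the carcinoma of mouse 10 there were 13, and without the papilloma of mouse 10 there were 0, with adjusted p of 0.0557 for Car9 and Pfkp, 0.0717 for Hk1 and 0.0854 for Ndrg1. There were also 0 by limma without mouse 3, 7 or 8, with only the 2 groups in the fit and with a library weight per group, and by limma-voom on recovered reads. In each of these settings the whole table had 0 calls, and an unadjusted p under 0.05 was reached by 10 to 15 members (27 to 40.5%), all of them lower in SCC, and by 14.2 to 21.3% of all genes. Of the members not called, Hk2 was at -1.01 ± 0.31 (adjusted p = 0.0619), Egln3 at -1.12 ± 0.33 (adjusted p = 0.0512) and Slc2a1 at -0.60 ± 0.34 (95% interval -1.32 to 0.12). Of the markers, 16 of 18 for skeletal muscle, 5 of 11 for myeloid cells, 4 of 12 for endothelium and 2 of 10 for fibroblasts were called higher in SCC than in PAP. Of those for keratinocytes, 2 of 14 were called lower. Over all genes, 4.99% were called higher and 0.592% lower. The part of these markers in the member values was not tested.

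**Figure D4:**
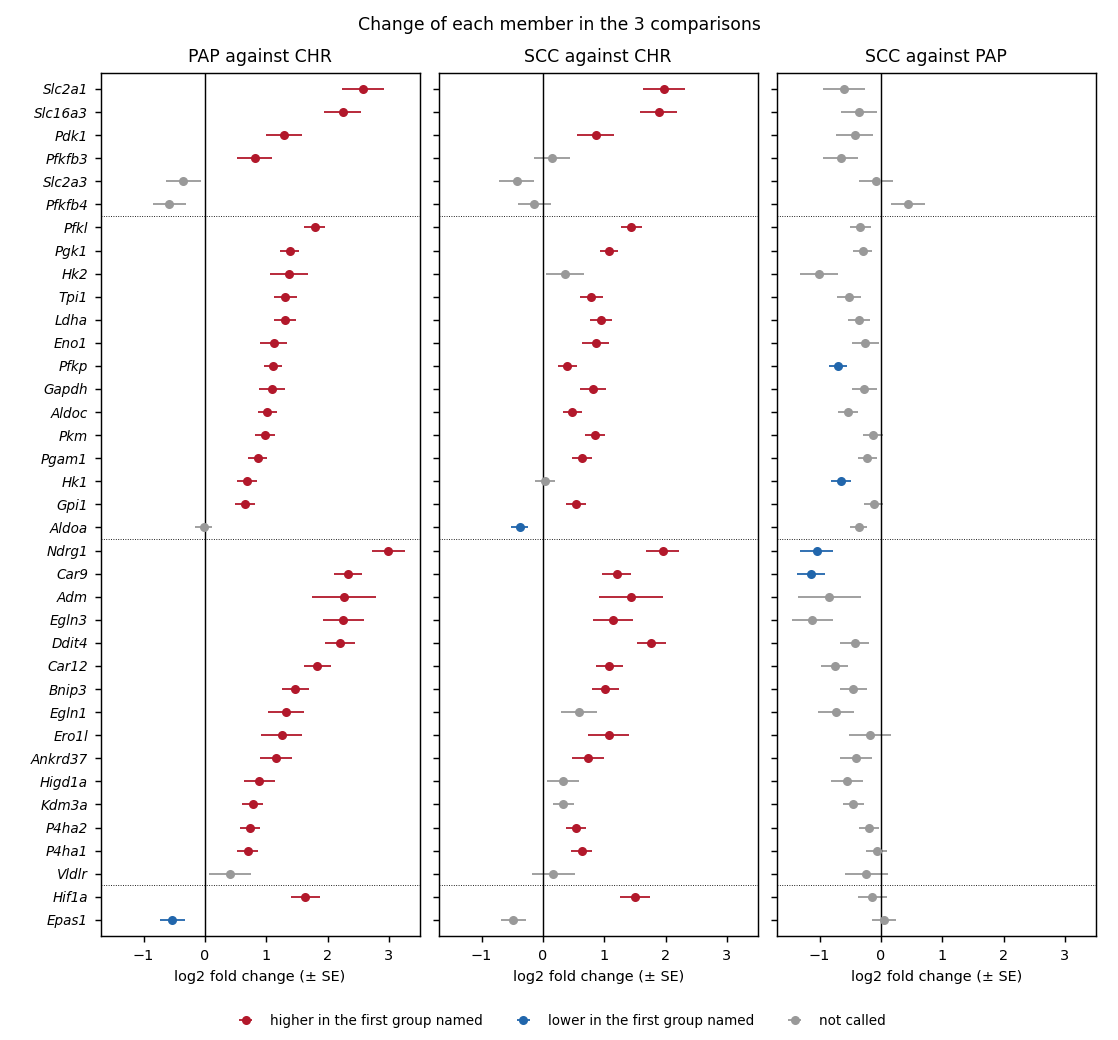
Log2 fold change ± SE of the 37 members in the 3 comparisons, by role, with called members in red (higher in the first group named) or blue (lower) and others in gray. In PAP against CHR 32 points are red, in SCC against CHR 26, and in SCC against PAP 4 are blue and 33 gray.

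Other genes of these pathways were taken from 4 further lists. Their calls in SCC vs PAP, like those of the members, were lost in the settings above in which no gene of the whole table was called. Of 19 other glycolysis isozymes and carriers in the table, 3 were higher and 11 lower in PAP (median -0.81), where 22.8% of all genes were called higher and 28.7% lower. Slc16a1, a lactate and pyruvate transporter, rose from 2922 ± 409 to 7799 ± 3266 normalized reads (1.30 ± 0.23, adjusted p = 0.000146), and Bpgm, which makes 2,3-bisphosphoglycerate, rose by 0.54 ± 0.18 (adjusted p = 0.0207). The 6 erythroid markers, of which 0 were called in PAP vs CHR, summed to 2202 to 16105 normalized reads in CHR and 1668 to 67594 in PAP. The part of red cells in the value of Bpgm was not tested. Eno3 and Hk3 had the largest falls on the log2(value + 1) scale, and by the ratio of means Pgam2 had the largest, at 0.0164 of CHR compared with 0.0262 for Eno3. In SCC vs PAP, Eno3, Pfkm, Pgam2 and Hk3 were higher (1.92 ± 0.43, 0.99 ± 0.27, 1.34 ± 0.36 and 1.48 ± 0.39). The sperm form Gapdhs was lower (-0.62 ± 0.18, adjusted p = 0.048), at the low levels of 32.8 ± 27.8 normalized reads in PAP and 6.79 ± 5.03 in SCC.

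Of 23 genes of pyruvate dehydrogenase, gluconeogenesis and glycogen, 2 were higher and 13 lower in PAP (median -0.51). The shares over all genes were 22.8% higher and 28.7% lower. Pygm, the muscle glycogen phosphorylase, fell by 5.19 ± 0.48 (adjusted p = 2.74e-07), from 4101 ± 1005 normalized reads in CHR to 68.8 ± 97.6 in PAP. Pck1, the first enzyme of gluconeogenesis and abundant in fat, fell by 4.17 ± 0.48 (adjusted p = 2.07e-06), from 916 ± 552 to 4.8 ± 11.3. Pgm2, a phosphoglucomutase, was the highest at 0.77 ± 0.19 (adjusted p = 0.00304), and the glycogen synthase Gys1 followed with 0.50 ± 0.21 and was not called (adjusted p = 0.0525). In SCC vs PAP only Pygm was called (1.76 ± 0.48, adjusted p = 0.0435). The muscle and adipocyte marker lists fell in the same comparison (18 of 18 and 11 of 12 lower in PAP), and their part was not tested.

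Of 16 genes that control HIF, 3 were higher and 3 lower in PAP, with a median of 0.02. Of all genes, 22.8% were higher and 28.7% lower. Vhl, which targets HIF for destruction, rose by 0.49 ± 0.14 (adjusted p = 0.00623) and its partner Cul2 by 0.41 ± 0.10 (adjusted p = 0.00271). Arnt2, a partner of HIF best known from brain, fell by 1.42 ± 0.20 (adjusted p = 1.34e-05), from 157.5 ± 31.9 normalized reads in CHR to 27.2 ± 13.6 in PAP. Hif3a fell by 0.72 ± 0.12 (adjusted p = 9.65e-05), from 25.8 ± 12.2 to 3.12 ± 2.28. At such low reads the log2 values understate the change. Arnt, the constant partner of the alpha subunits, was at 0.03 ± 0.09 (adjusted p = 0.801), and was named after its value was seen.

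Of 31 further HIF targets, 13 were higher and 6 lower in PAP (median 0.30) and 10 higher and 4 lower in SCC vs CHR (median 0.15). By the same threshold, the whole table had 22.8% up and 28.7% down in PAP, around a median of 0.00. For SCC vs CHR its shares were 15.1% up and 21.4% down, around a median of -0.02. Vegfa, the main angiogenic factor, had 878 to 1857 (median 1189) normalized reads in CHR, 5850.4 to 13244 (median 9604) in PAP and 2957 to 6569 (median 4271) in SCC. Every lesion exceeded every CHR library, and only the highest carcinoma exceeded the lowest papilloma. Its log2 fold change was 2.81 ± 0.22 in PAP (adjusted p = 6.53e-08) and -1.09 ± 0.22 in SCC vs PAP (adjusted p = 0.0231). Pgf, a placental growth factor of the same family, had 18.6 to 82.2 (median 45.5), 528 to 2567 (median 985) and 144 to 556 (median 324), and it rose by 3.29 ± 0.31 in PAP (adjusted p = 3.31e-07) and was lower in SCC than in PAP (-1.48 ± 0.31, adjusted p = 0.0231). F3, which encodes tissue factor, and the demethylase Kdm4b were also lower in SCC than in PAP (-1.08 ± 0.30, adjusted p = 0.0445, and -0.49 ± 0.13, adjusted p = 0.0435). Lox, which crosslinks collagen, Igfbp3, a binding protein of insulin-like growth factors, and Ppp1r3c, a glycogen-targeting subunit, were higher in SCC than in PAP (2.73 ± 0.70, 1.46 ± 0.39 and 1.61 ± 0.27). The SCC vs PAP calls of this list were lost in the same settings as those of the members, including without the papilloma of mouse 10. On the log2(value + 1) scale, Lox and Ppp1r3c had the largest falls of this list in PAP (-2.78 ± 0.70 and -3.96 ± 0.27). Also lower in PAP were 6 of 10 fibroblast, 18 of 18 skeletal muscle, 11 of 12 adipocyte and 9 of 11 myeloid markers, whose part was not tested.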

How the data were processed

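RNA was sequenced from whole CHR, PAP and SCC tissue of 6 mice, giving 18 libraries. According to the study's methods, mouse reads were aligned to mm10, counted per gene with HTSeq, divided by scaling factors and passed by the authors through the variance-stabilizing transformation of DESeq2; the aligner is stated for human reads only, batch correction is mentioned, and software versions, annotation release and strand setting are not given in the sources used here. The deposited table holds one score per gene and library, a transformed count that the authors returned to a linear scale and rounded, with 0 reads at 39. All columns were mapped to samples (0 unmapped), and 21 of 14542 entries without a symbol, at most 0.236% of reads, were left out.

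Whole reads were recovered by inverting the transformation, and 99.3% of all values and 100% of values under 100 equalled the value of a whole number of reads exactly. The deposited values were therefore treated as not batch-corrected, and the sample labels give no batch. Size factors were 0.834 to 1.18. limma 3.58.1 in R 4.3.3 was fitted to log2(value + 1) for all libraries with 1 coefficient per group and two-sided moderated tests, Benjamini-Hochberg adjusted over 14521 genes. The scripts were tested on simulated data. A count model was not the main test because the deposited values are transformed, and limma-voom on recovered reads was an alternative. Libraries with the same number come from the same mouse and are paired. Correlations of their deviations from the group means had medians of 0.15 (-0.23 to 0.22) in PAP vs CHR, 0.07 (-0.09 to 0.51) in SCC vs CHR and 0.05 (-0.24 to 0.39) in SCC vs PAP. The main fit had no term for the mouse, since the study names none for its pairwise tests. Its linear mixed effects model corrected for the mouse, and the mouse as a block was an alternative.

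The members were picked by gene name and not by a threshold on their values, but they, the gene lists and the tests were chosen with earlier results of these data known. All 37 members are named. Lowest, median and highest values are given for members called in SCC vs PAP and for the 3 smallest and 3 largest changes per role in PAP vs CHR, and from each further list those called in SCC vs PAP and the 2 largest changes each way in PAP vs CHR. Reads per kb used the exonic length of GENCODE M21 (GRCm38), which also gave gene positions, and promoter windows came from RefSeq. The 21 alternatives changed the block, test, pseudocount, filter (mean of at least 10 normalized reads), scaling and libraries. Leaving out the papilloma of mouse 10 was chosen after seeing the data.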

Additional observations from a re-analysis of the deposited data

Results flagged for a closer look

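Of 111 sets of 6 libraries (37 members in 3 groups), 16 held a sample set apart from the other 5 by Dixon's ratio, a test that marks about 1 in 20 groups by chance. The 16 sets belonged to 15 members, and 7 of them were due to the papilloma of mouse 10, the library that also stood apart over all genes.

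That papilloma was the highest of its group for Hk1 with 5513 normalized reads (the other 5 had at most 3645), for Aldoa with 12018 (8230.1), for Tpi1 with 8144 (4975), for Gapdh with 619.8 (243), for Pfkfb3 with 6679 (2255), for Pdk1 with 7897 (2744) and for Bnip3 with 547.5 (281). Among carcinomas, mouse 9 was set apart for Ero1l with 8012 (the others had at most 3032) and for Aldoc with 521 (368), and mouse 7 for Pfkfb4 with 2023 (929.5) and Slc2a3 with 402 (164). In the exposed skin, mouse 10 was set apart for Ero1l with 2198 (1426), Ankrd37 with 198 (115) and Kdm3a with 2649.8 (2372). The papilloma of mouse 3 was set apart for P4ha2 with 1235 (806.5). Higd1a was the only set with a low library, the papilloma of mouse 2 with 584 normalized reads where the other 5 papillomas had 880.2 to 919, and the same papilloma had the highest sum of muscle markers of its group.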

How the results depend on the processing

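No call of a member changed sign under the 21 alternatives. In PAP vs CHR and SCC vs CHR the number of members called stayed within 1.5 times the main count throughout, and for hypoxia targets in SCC vs CHR it ranged from 7 (without mouse 9) to 12 of 15 when libraries were left out, against 11. The mouse as replicate block raised the SCC vs PAP counts from 4 to 7 members, from 2 to 5 targets and from 810 to 1430 genes of the whole table, and called Pfkfb4 in PAP vs CHR. It changed no other call of a member. With the block, limma-voom called 6 members, of which 4 were targets. The SCC vs PAP counts were 0 (members, enzymes, targets and whole table) by limma-voom without the block, where 15 members and 21.3% of all genes had an unadjusted p under 0.05, and by limma with only the groups compared (12 members, 17.2% of genes) and with library weights per group (11 members, 16.7%). When single mice or the lesions of mouse 10 were left out, these counts ranged from 0 to 13 members, 0 to 5 enzymes, 0 to 8 targets and 0 to 2458 genes. The cause was not tested. Members with few reads (Car9, Bnip3, Gapdh and Pgam1 in CHR) are limited by depth, and their fold changes are compressed on the deposited scale.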

Other observations

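Other isozyme and carrier pairs shifted in the same way across the groups. Hk1 with Hk2 made up 45.9 to 73.8% of reads per kb of the 3 hexokinases Hk1, Hk2 and Hk3 in CHR, 97.5 to 99.7% in PAP and 75.3 to 98.4% in SCC, and Slc2a1 made up 79.3 to 90% of Slc2a1 and the insulin-responsive transporter Slc2a4 in CHR, 98.5 to 99.7% in PAP and 97.4 to 99.4% in SCC. These sets were computed after the values had been seen, beside lower myeloid and muscle markers in both lesions, whose part was not tested.

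Roles moved unequally within single mice. The median log2 change from CHR to PAP was 0.84 to 1.68 for enzymes and 0.95 to 1.87 for targets over the 6 mice, and for the 6 transporters and flux regulators it was 2.78 in mouse 10 and 0.52 to 0.89 in the other 5. In carcinomas, mouse 10 was the highest for 10 of 15 targets and mouse 9 for 9 of 14 enzymes, compared with 18.3% and 22.6% of all genes. Mouse 8 was the lowest for 12 of 15 targets and mouse 7 for 7 of 14 enzymes, and the shares of all genes at the lowest were not computed.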
